A study of Mus musculus with 6 samples.

Results

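MHC class II molecules are the surface proteins that show peptides from taken-up material to helper T cells. Each is a pair of an alpha and a beta chain, and Cd74, the invariant chain, holds the pair in place and fills its groove until the H2-DM pair helps a peptide to take its seat. Ciita, the class II transactivator, switches the whole set on. Dendritic cells, B cells and macrophages are the main carriers of class II. Many epithelial cells, those of bile ducts among them, can make it when interferon gamma reaches them.

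The genes described here are Cd74, H2-Aa, H2-Ab1, H2-Eb1, H2-DMa, H2-DMb1 and Ciita, taken by symbol from the deposited table, which held all 7 among its 24404 genes. All 7 had a mean normalised count of at least 10 over the libraries, the lowest level tested. The family was selected on its normalised counts in these same 6 libraries, which had been seen to vary within groups. Its levels, their spread and its group differences are therefore a description. No p-value is given for these genes, and the standard errors and counts of calls below support no claim about them. Ptprc, which codes for the CD45 protein that nearly all white blood cells carry, is set beside them as a measure of leukocyte RNA.

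The 6 RNA-seq libraries came from biliary epithelial cells, the lining of the ducts that carry bile within the liver, of adult C57BL/6 mice with 1 week of injury by DDC, a compound that damages bile ducts. The 3 Klf5 LKO libraries were from mice of the genotype Alfp-CreTg/+;Klf5flox/flox, in which Cre is driven in the liver epithelium by albumin and alpha-fetoprotein control elements. The 3 control libraries were from mice of the genotype Alfp-Cre+/+;Klf5flox/flox. All mice carried the floxed Klf5 gene, a zinc-finger transcription factor of epithelia, and Cre was in the Klf5 LKO group alone. Whether each library is a separate animal is not stated, so the spread between them may be partly technical, and the labels used here do not give how the cells were purified.

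Between 11726934 and 24784167 reads per library were assigned to genes. Klf5 stood at 977, 1192 and 1183 normalised counts in Klf5 LKO libraries 1, 2 and 3, against 2056, 2018 and 2316 in control libraries 1, 2 and 3. The biliary markers were abundant in all 6 libraries. Spp1, Cdh1 and Epcam had at least 288036, 40202 and 23403 normalised counts in each of the 6. Leukocyte transcripts differed between libraries of the same group. Ptprc had 97.8, 12.7 and 34.1 normalised counts in Klf5 LKO (119, 17 and 32 reads), against 326, 258 and 16.3 in control (355, 163 and 16 reads). Control 1, control 2 and Klf5 LKO 1 thus held the most, and control 3 and Klf5 LKO 2 the least, in an order that crosses the groups. In such bulk RNA, fewer leukocytes and less RNA per leukocyte cannot be told apart.

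The promoters of 3 of the genes are shown because class II genes are known to share an upstream module, in which an X box is bound by the RFX complex and a Y box by NF-Y, and on which Ciita then assembles. The RefSeq promoter table (build GRCm38.p6) had entries for 4 of the 7 genes, H2-Aa, H2-Eb1, H2-DMb1 and H2-DMa. The 250 bases before each start site were searched on both strands for GNAACT, in which N is any base, followed by TGATTGG starting within 60 bases. These letters were chosen with the class II sequences in view, and the 2 motifs do not overlap. Start sites here are those of RefSeq, while the gene positions given below are from GENCODE. For H2-DMb1 the GENCODE start, 34153072, lies upstream of the RefSeq one. Nearly all of its stretch shown is thus within the GENCODE gene. Both H2-DMa entries also lie within the GENCODE span of that gene. The 120 bases before the RefSeq start site, with both motifs in capitals, are as follows.

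H2-Aa (chr17:34287824-34287943, minus strand): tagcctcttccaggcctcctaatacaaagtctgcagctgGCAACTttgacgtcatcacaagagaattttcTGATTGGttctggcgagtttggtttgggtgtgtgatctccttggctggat
H2-Eb1 (chr17:34305747-34305866, plus strand): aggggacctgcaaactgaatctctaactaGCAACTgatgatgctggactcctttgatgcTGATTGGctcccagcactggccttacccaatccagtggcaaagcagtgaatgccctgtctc
H2-DMb1 (chr17:34153071-34153190, plus strand): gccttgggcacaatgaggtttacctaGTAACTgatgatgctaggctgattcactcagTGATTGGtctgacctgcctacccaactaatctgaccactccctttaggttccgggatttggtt

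The pair of motifs stood 31 bases apart in H2-Aa, 30 bases apart in H2-Eb1 and 31 bases apart in H2-DMb1, counted from start to start. It was present in 125 (0.380%) of the 32851 promoters in the table. TGATTGG alone was present in 7.23% of them. Neither of the 2 entries for H2-DMa held either the pair or TGATTGG. Among other class II genes with an entry, H2-Eb2 held the pair, and H2-DMb2, H2-Oa and H2-Ob did not. The matches are a description of these letters and do not show that a factor binds there.

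The alpha and beta chains came first. H2-Aa (chromosome 17, 34282744 to 34287823, minus strand, GRCm38, the assembly of mm10) and H2-Ab1 (chromosome 17, 34257689 to 34269419, plus strand) code for the 2 chains of the I-A molecule. H2-Aa had 2356, 252 and 522 normalised counts in Klf5 LKO 1, 2 and 3, against 5229.7, 2394 and 330.2 in control 1, 2 and 3. H2-Ab1 had 3489, 326 and 743 in Klf5 LKO, against 6798, 3109 and 369.8 in control. For both genes control 1 was highest and Klf5 LKO 2 lowest, and the groups overlapped.

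The log2 difference (Klf5 LKO minus control) was -1.25 (SE 0.89, 95% interval -3.19 to 0.70) for H2-Aa and -1.07 (SE 0.94, 95% interval -3.12 to 0.98) for H2-Ab1, n = 3 each. The highest control library was 15.8 times the lowest for H2-Aa and 18.4 times for H2-Ab1. The spread within a group was thus wider than the difference between the groups.

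H2-Eb1 (chromosome 17, 34305867 to 34316674, plus strand) codes for the beta chain of the second class II molecule, I-E. It had 1047, 85.0 and 263 normalised counts in Klf5 LKO, against 2812, 1443 and 211 in control, a log2 difference of -1.73 (SE 0.90, 95% interval -3.69 to 0.24). Its order of libraries was that of H2-Aa and of Ptprc. C57BL/6 mice are known to make no I-E on the cell surface because their alpha chain gene, listed as H2-Ea-ps, is defective. H2-Ea-ps had 0 reads in all 6 libraries, where 3 reads, the limit that a count of 0 allows, would be a normalised count of 2.24 to 4.74.

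Cd74 (chromosome 18, 60803848 to 60812652, plus strand) was the most abundant of the 7 genes in every library. It had 18924, 7572 and 9091 normalised counts in Klf5 LKO, against 24233, 14148 and 4357 in control. It ranked 55th, 270th and 207th of the 24404 genes in Klf5 LKO 1, 2 and 3, against 41st, 108th and 640th in control 1, 2 and 3. Its log2 difference was -0.07 (SE 0.50, 95% interval -1.15 to 1.02).

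Per kilobase of merged exon, Cd74 had 11271, 4509.7 and 5414 normalised counts in Klf5 LKO, against 14433, 8427 and 2595 in control. On the same per-kilobase scale H2-Ab1 had 1358.5, 127 and 289 in Klf5 LKO, against 2647, 1211 and 144 in control. The invariant chain thus exceeded the I-A beta chain in each of the 6 libraries, also where Ptprc was lowest.

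H2-DMa (chromosome 17, 34119541 to 34139101, plus strand) and H2-DMb1 (chromosome 17, 34153072 to 34160230, plus strand) code for the 2 chains of the H2-DM peptide editor. H2-DMa had 136, 23.1 and 59.6 normalised counts in Klf5 LKO, against 338, 210.2 and 56.9 in control, a log2 difference of -1.46 (SE 0.69, 95% interval -2.96 to 0.05). H2-DMb1 had 242, 85.7 and 135 in Klf5 LKO, against 322, 209 and 88.4 in control, a log2 difference of -0.36 (SE 0.48, 95% interval -1.40 to 0.69). Over the 6 libraries H2-DMb1 varied the least of the 7 genes, by 3.76-fold from the lowest to the highest.

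Shared sequence limits both values. H2-DMb1 and its neighbour H2-DMb2 share 95.9% of the bases of their longest reading frames, so reads of one may have been assigned to the other. H2-DMa shares 360 exon bases with Brd2 on the opposite strand, a gene at 2713 to 2991 normalised counts in Klf5 LKO and 2776 to 3166 in control, and no source used here says that strand was used in counting.

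Ciita (chromosome 16, 10480059 to 10528418, plus strand), which controls all the others, was scarce. It had 7, 54 and 21 reads in Klf5 LKO 1, 2 and 3, with exact 95% Poisson intervals of 2.81 to 14.4, 40.6 to 70.5 and 13 to 32.1 reads. It had 82, 77 and 2 reads in control 1, 2 and 3, with intervals of 65.2 to 102, 60.8 to 96.2 and 0.242 to 7.22 reads. These intervals cover counting error only. As normalised counts these were 5.75, 40.2 and 22.4 in Klf5 LKO, against 75.4, 122 and 2.03 in control, a log2 difference of -0.71 (SE 1.23, 95% interval -3.39 to 1.97).

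The order of libraries for Ciita was not that of the class II chains. Klf5 LKO 1, which was above control 3, Klf5 LKO 2 and Klf5 LKO 3 in the other 6 genes, was below both other Klf5 LKO libraries in Ciita. Klf5 LKO 2 had the most Ciita of its group and the least of its group in the other 6. Ciita shares 329 exon bases with Dexi on the opposite strand, a gene at 333 to 391 normalised counts in Klf5 LKO and 249.7 to 369 in control. The part of Dexi reads in the Ciita values was not tested.

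**Figure D1:**
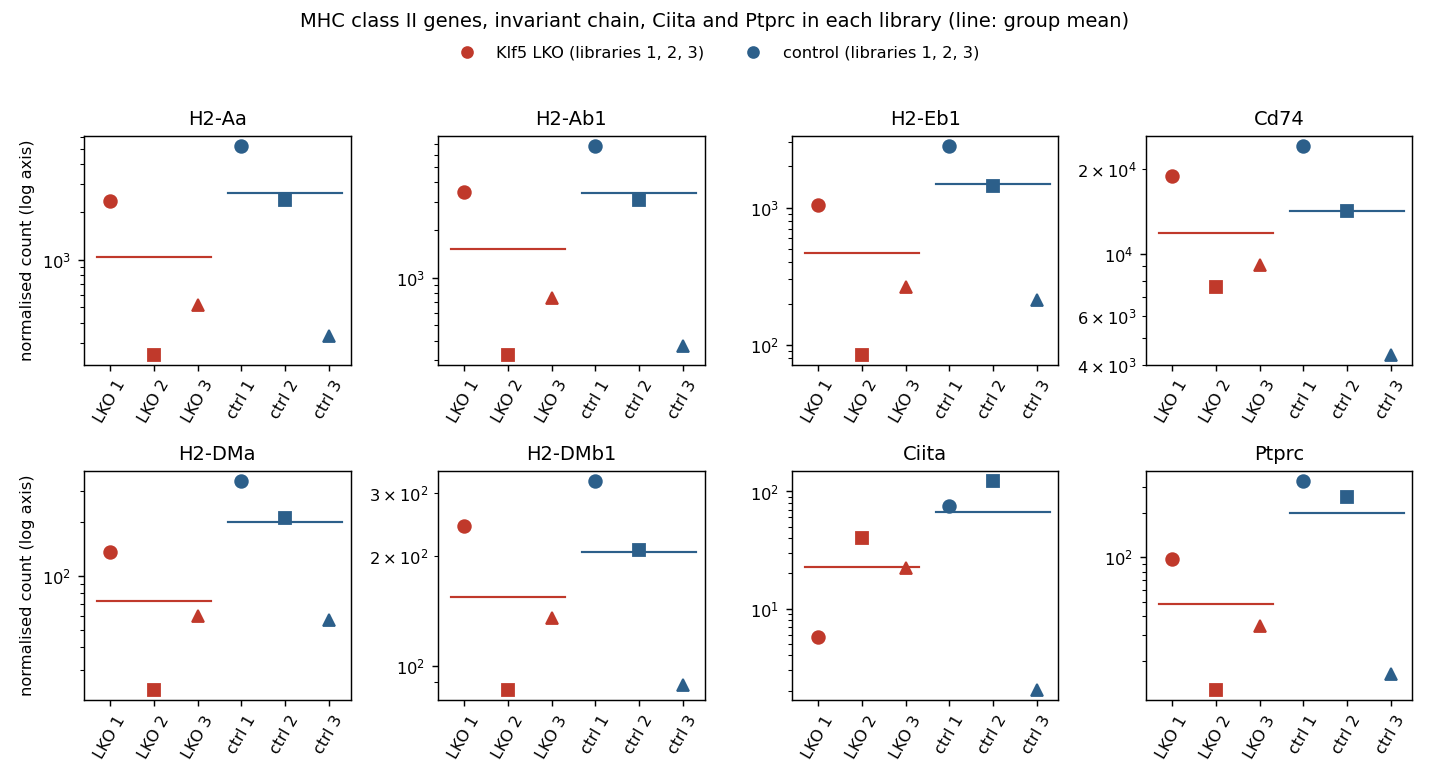
Normalised counts (log axis) of the 7 genes and of Ptprc in the 3 Klf5 LKO libraries (red) and the 3 control libraries (blue), with a line at each group mean. The groups overlap in every panel, and except for Ciita the lowest library is Klf5 LKO 2 or control 3 and the highest is control 1.

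Of the 7 genes, 0 passed the limma test across all genes (adjusted p under 0.05), against 0.652% of the 13490 genes tested. The count was also 0 at an unadjusted p under 0.05 (10.9% of all genes tested), 0 with DESeq2 (2.48%), 0 with edgeR (0.623%) and 0 in the authors' deposited table of the comparison. In 0 of the 7 did the groups stand apart, against 15.6% of all genes tested. Because the genes were chosen with these values known, nothing is read from these counts. The median log2 difference was -1.07 over the 7 genes and -0.01 over all genes tested, and all 7 were below 0, as were 50.8% of all genes.

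The 7 genes varied widely between libraries, which was known when they were selected, so their spread is described only. The median ratio of the highest to the lowest library was 20.8 over the 7 genes, against 1.64 over the 13058 tested genes with reads in every library. The median difference of the 7 changed with single libraries. It was -0.18 without control 1, -0.53 without Klf5 LKO 2 and -0.75 without control 2, but -2.28 without control 3 and -2.01 without Klf5 LKO 1. With the log2 level of Ptprc as a term in the fit it was 0.34.

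With that term the log2 difference was 0.77 (SE 0.19) for Cd74, 0.55 (SE 0.28) for H2-Ab1, 0.28 (SE 0.29) for H2-Aa, 0.34 (SE 0.32) for H2-DMb1 and 0.34 (SE 1.27) for Ciita. It was -0.19 (SE 0.33) for H2-Eb1 and -0.40 (SE 0.41) for H2-DMa. The sign was thus above 0 for 5 of the 7 genes in that fit, though those of H2-Aa, H2-DMb1 and Ciita were about the size of their standard errors or smaller. Leaving out a single library also turned some signs. For Cd74 the difference was 0.20 when Klf5 LKO 2 was dropped and 0.07 when Klf5 LKO 3 was. It was 0.48 when control 1 was dropped and 0.09 when control 2 was. H2-DMb1 was at 0.05 without control 1, and Ciita at 0.02 without Klf5 LKO 1 and 0.29 without control 2. With the mean of the general leukocyte markers in place of Ptprc, the median of the 7 differences relative to it was -0.0468, against 0.58 relative to Ptprc.

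The chains of class II kept close to Ptprc. Per Ptprc count, H2-Aa had 24.1, 19.9 and 15.3 counts in Klf5 LKO, against 16.0, 9.29 and 20.3 in control. The corresponding values for H2-Ab1 were 35.7, 25.8 and 21.8 in Klf5 LKO, against 20.8, 12.1 and 22.8 in control. Those for H2-Eb1 were 10.7, 6.71 and 7.72 in Klf5 LKO, against 8.61, 5.60 and 13 in control. Over the 6 libraries these 3 ratios ranged by 2.59-fold, 2.96-fold and 2.32-fold, where the levels themselves ranged by 20.8-fold, 20.8-fold and 33.1-fold.

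The ratio of H2-DMa to Ptprc ranged by 4.29-fold, against 14.6-fold for its level. For H2-DMb1 and Cd74 the ratio ranged more widely than the level, by 8.35-fold against 3.76-fold for H2-DMb1 and by 10.9-fold against 5.56-fold for Cd74. For Ciita the ratio ranged by 54.0-fold and the level by 59.9-fold. Cd74 per Ptprc was 194, 598 and 267 in Klf5 LKO, against 74.2, 54.9 and 268 in control. It was lowest in control 1 and 2, the libraries richest in Ptprc, and highest in Klf5 LKO 2, the poorest. Since Ptprc ranged by 25.8-fold, more widely than Cd74, this order follows largely from the division. The ratios in Klf5 LKO 2 and control 3 rest on 17 and 16 Ptprc reads. In 0 of the 7 genes did the ratio to Ptprc separate the groups, against 0.801% of all genes tested. Division by so variable a gene makes most ratios overlap, so nothing is read from that share.

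The same can be put as a slope, the change in a gene's log2 value per 1 log2 unit of Ptprc over the 6 libraries, where 1 means in proportion and 0 means no relation. It was 0.95 for H2-Eb1, 0.91 for H2-Ab1, 0.89 for H2-Aa, 0.69 for H2-DMa, 0.59 for Ciita, 0.41 for Cd74 and 0.38 for H2-DMb1. The 6 points share their library's depth and scaling, and 5% of all tested genes had a slope above 0.21. A gene that varies little can only have a slope near 0, and these genes were selected with their wide spread known. Nothing is therefore read from their slopes against that share. The slope of H2-Ab1 stayed between 0.88 and 1.02 when any 1 library was left out, and that of Cd74 between 0.32 and 0.49. The slope of Ciita went up to 1.02 without Klf5 LKO 2 and down to 0.31 without control 3, so it rests on single libraries.

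**Figure D2:**
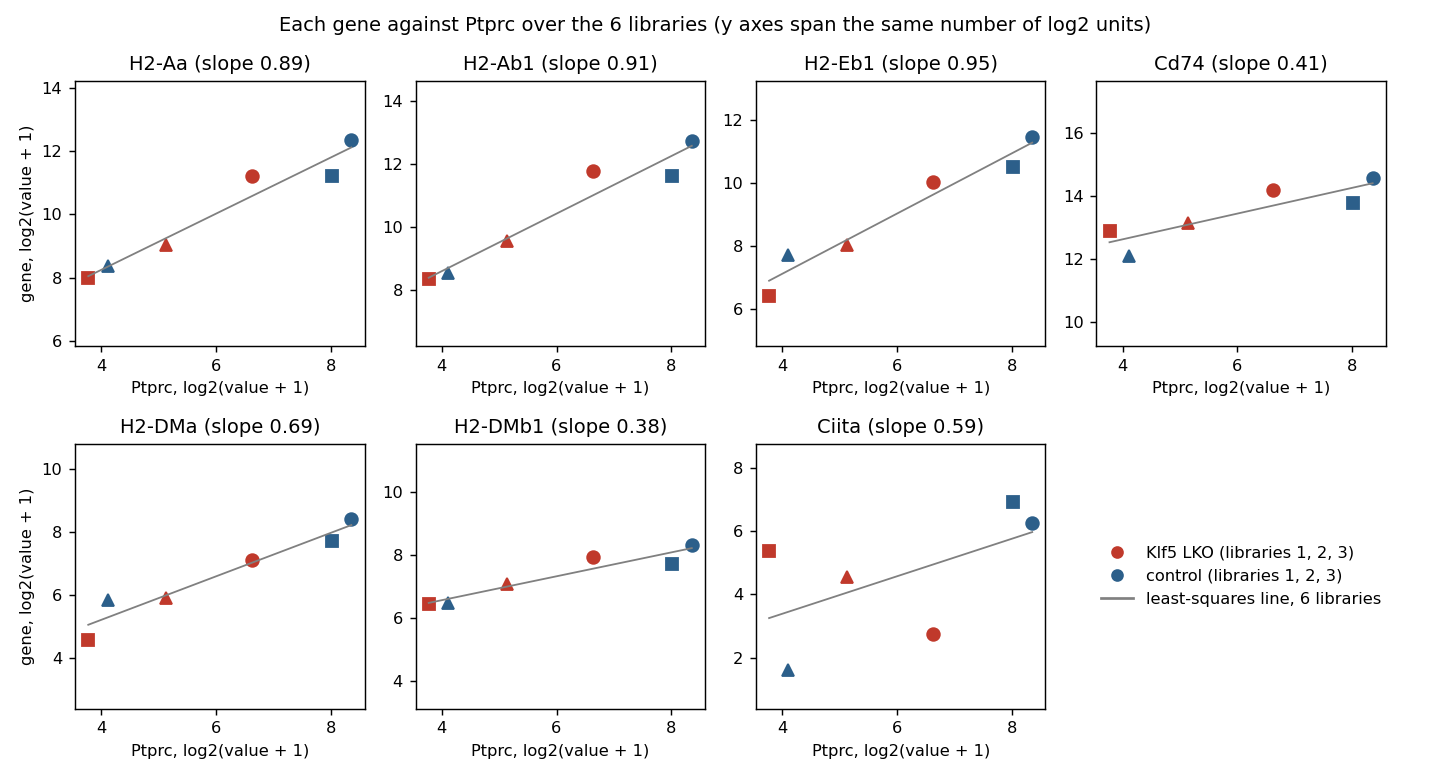
Log2(value + 1) of each of the 7 genes against that of Ptprc in the 3 Klf5 LKO libraries (red) and the 3 control libraries (blue), with the least-squares line over the 6 libraries. The class II chains lie near lines of slope 0.89 to 0.95, Cd74 and H2-DMb1 near lines of slope 0.41 and 0.38, and Ciita is scattered.

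Ratios among the 7 genes need no outside reference. H2-Aa per H2-Ab1, the 2 chains of I-A, was the steadiest of the 21 possible pairs, at 0.675, 0.772 and 0.702 in Klf5 LKO, against 0.769, 0.770 and 0.893 in control. It ranged by 1.32-fold while each gene ranged by 20.8-fold.

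Cd74 did not keep to the chains but kept to H2-DMb1. Cd74 per H2-Ab1 was 5.42, 23.2 and 12.2 in Klf5 LKO, against 3.56, 4.55 and 11.8 in control, and was higher in the 3 libraries with the least Ptprc than in the other 3. Cd74 per H2-DMb1 was 78.1, 88.3 and 67.2 in Klf5 LKO, against 75.3, 67.8 and 49.3 in control, a 1.79-fold range. H2-DMb1 per H2-Ab1 was 0.0695, 0.263 and 0.182 in Klf5 LKO, against 0.0473, 0.0671 and 0.239 in control. It too was higher in the 3 libraries with the least Ptprc. These orders follow largely from division by H2-Ab1, which ranged more widely (20.8-fold) than Cd74 or H2-DMb1.

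H2-Eb1 per H2-Ab1 was 0.300, 0.260 and 0.354 in Klf5 LKO, against 0.414, 0.464 and 0.571 in control. The groups did not overlap, and the log2 ratio was lower by 0.659 in Klf5 LKO. Of all genes tested, 0.563% did not overlap between groups when divided by H2-Ab1, against 15.6% before division. H2-Ab1 itself ranged by 20.8-fold, so division by it makes most genes overlap. The 0.563% is thus no measure of how rare the separation is. Of the 21 pairs among the 7 genes, 4 did not overlap, but these pairs share genes, and the share over other gene pairs was not computed. The separation of H2-Eb1 per H2-Ab1 was noticed after the values were seen, and no test is given.

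**Figure D3:**
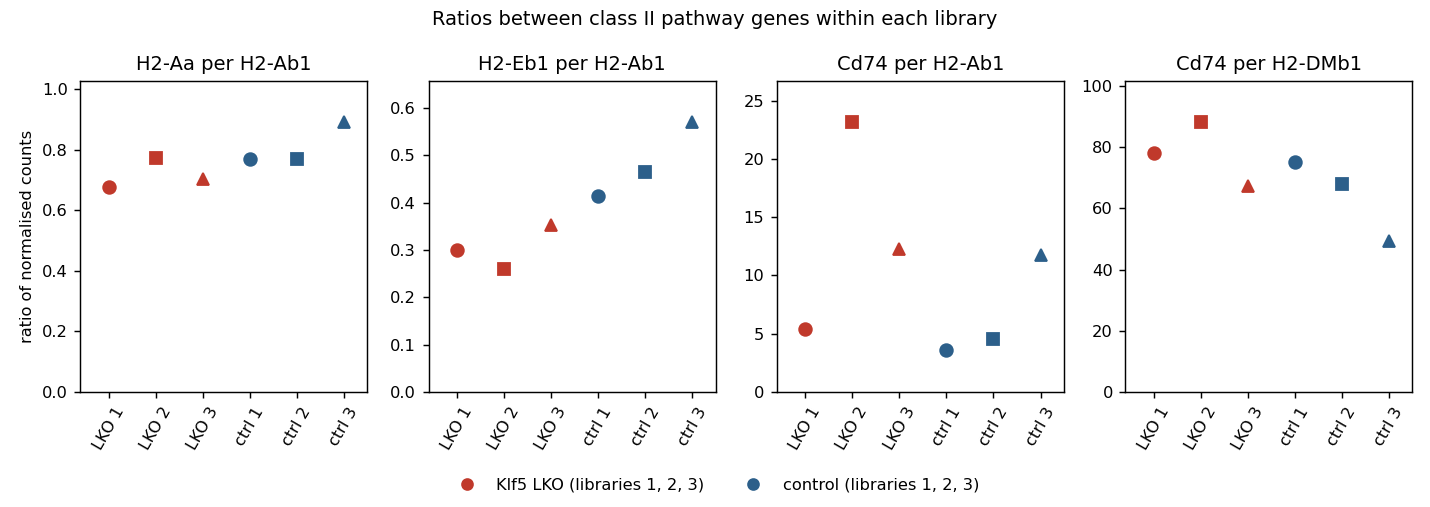
Ratios of normalised counts within each library for 4 pairs of genes, in Klf5 LKO (red) and control (blue), on linear axes from 0. H2-Aa per H2-Ab1 and Cd74 per H2-DMb1 vary by 1.32-fold and 1.79-fold, Cd74 per H2-Ab1 ranges from 3.56 to 23.2, and H2-Eb1 per H2-Ab1 is lower in all 3 Klf5 LKO libraries.

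The other genes of antigen presentation were taken as 6 lists with 57 tested genes. Of these, 1 fell, 0 rose and 56 did not pass with limma. At an unadjusted p under 0.05 there were 8, against 10.9% of all genes tested. DESeq2 called 3 (2.48% of all genes) and edgeR called 1 (0.623%). The groups stood apart for 10 of the 57, against 15.6% of all genes.

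The gene that fell was Ctse, which codes for cathepsin E, an aspartic protease of endosomes that is also made by stomach and other lining epithelia. It had 555, 300.3 and 612 normalised counts in Klf5 LKO, against 1365, 2349 and 2329 in control. All 3 Klf5 LKO libraries were below all 3 control libraries. Its log2 difference was -2.06 (SE 0.28, limma adjusted p = 0.00651), and without control 2 the adjusted p was 0.0588. Its slope on Ptprc was 0.27, and with Ptprc as a term its difference was -2.05 (limma adjusted p = 0.0340).

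In the list of class II peptide loading and turnover, with 12 tested genes, 1 fell (Ctse) and 0 rose, and the median log2 difference was 0.07. Lgmn, the endosomal protease legumain, was at 1734, 1886 and 1729 in Klf5 LKO, against 1355, 1163 and 1282 in control (limma adjusted p = 0.149, DESeq2 adjusted p = 0.0319). Ctss, cathepsin S, which trims the invariant chain in professional antigen-presenting cells, went with Ptprc instead. It had 127, 14.2 and 89.4 in Klf5 LKO, against 529, 296 and 12.2 in control, with a slope of 1.08 and a limma adjusted p of 0.773.

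Of the other class II chain genes, 3 were tested and 0 passed with limma, its unadjusted p, DESeq2 or edgeR, with a median log2 difference of -1.57. H2-DMb2, the second H2-DM beta chain, had 53.4, 6.71 and 1.06 normalised counts in Klf5 LKO, against 146, 75.9 and 1.02 in control (limma adjusted p = 0.779). Its slope on Ptprc was 1.23, against 0.38 for its close copy H2-DMb1. H2-Ob, a chain of the H2-O modulator found mainly in B cells, had 9.04, 0 and 4.26 in Klf5 LKO, against 69.0, 25.3 and 0 in control (limma adjusted p = 0.769). The 2 lowest values of H2-DMb2 are 1 read each.

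The factors that act on class II promoters had reads in all 6 libraries. Of 11 tested, 0 passed with limma, 2 had an unadjusted p under 0.05 (10.9% of all genes), DESeq2 called 1 (2.48%) and edgeR 0 (0.623%). Their median log2 difference was -0.06, and their slopes on Ptprc ran from -0.11 to 0.10. Rfx5, the DNA-binding subunit of the RFX complex, had 1107, 914 and 825 in Klf5 LKO, against 740.3, 529 and 470.4 in control. All 3 Klf5 LKO libraries were above all 3 control libraries, a log2 difference of 0.73 (SE 0.20) with limma adjusted p = 0.162 and DESeq2 adjusted p = 0.0485. Kat2b, an acetyltransferase that acts with Ciita, had a difference of 0.35 (limma adjusted p = 0.452).

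For interferon gamma signalling, 11 genes were tested and 0 passed with limma, its unadjusted p, DESeq2 or edgeR, with a median log2 difference of -0.03 and a median slope of 0.05. Ifng itself, the gene for the cytokine, had 0 reads in all 6 libraries. Jak2, a kinase on its receptor, had 1799, 1455 and 1392 in Klf5 LKO, against 2092, 1811 and 1637 in control (limma adjusted p = 0.590).

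MHC class I presents peptides from inside the cell and is made by nearly all cells. Its spread was narrower than that of class II, which was selected with its spread already seen. The 14 class I genes had a median highest-to-lowest ratio of 1.54 and a median slope on Ptprc of 0.02. With limma 0 of 14 passed, 4 had an unadjusted p under 0.05 (10.9% of all genes), and DESeq2 (2.48%) and edgeR (0.623%) called 0. Those 4 were H2-D1, Tap2, Tapbp and Nlrc5, each higher in Klf5 LKO, while 5 of the 14 genes had a lower mean log2 value there. The heavy chain H2-K1 had 19546, 32040.2 and 28497 in Klf5 LKO, against 27112, 25619 and 25372 in control. H2-D1, the other heavy chain listed, had 26278, 24808 and 26527 in Klf5 LKO, against 20646, 23972 and 19228 in control (limma adjusted p = 0.438). Tapbp, which holds class I to the peptide transporter, differed by 0.31 (limma adjusted p = 0.393). Nlrc5, the class I counterpart of Ciita, had 432, 402 and 327 in Klf5 LKO, against 350.4, 191 and 249 in control (limma adjusted p = 0.436).

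Among costimulation and checkpoint ligands, which a T cell must also meet, 6 genes were tested and 0 passed with limma, its unadjusted p, DESeq2 or edgeR. Cd86 had 188, 0 and 0 normalised counts in Klf5 LKO, against 74.5, 14.2 and 2.03 in control. Cd274, which codes for PD-L1, had 200.5, 197 and 241 in Klf5 LKO, against 145, 136 and 205 in control (limma adjusted p = 0.642). Icam1 differed by 0.17 (limma adjusted p = 0.657).

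**Figure D4:**
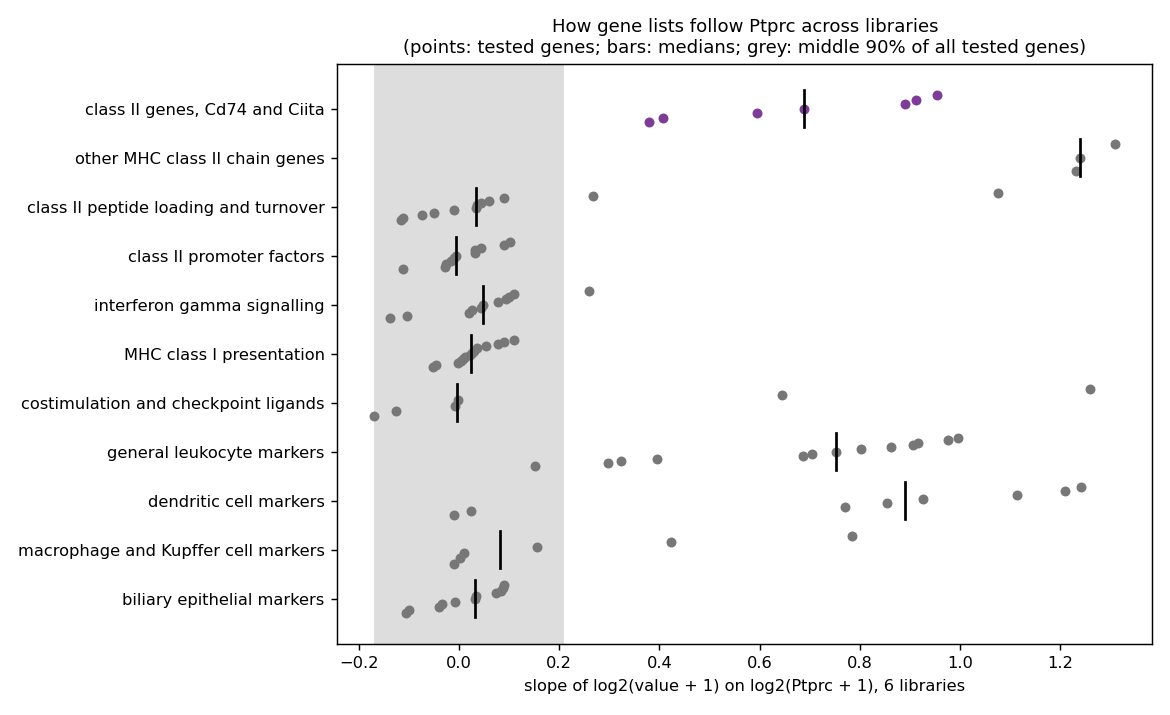
Slope of log2(value + 1) on log2(Ptprc + 1) over the 6 libraries for each tested gene of 11 lists (points, Ptprc itself left out), with list medians (black bars) and the middle 90% of all tested genes (grey, -0.17 to 0.21). The 7 genes lie between 0.38 and 0.95 with a median of 0.69, near the general leukocyte (0.75) and dendritic cell (0.89) markers. Class I genes, promoter factors and biliary markers lie near 0. The 7 genes were selected with their wide spread known, so their place outside the grey band is described only.

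The slopes of white blood cell markers on Ptprc had medians of 0.75 for general leukocyte (13 tested genes) and 0.89 for dendritic cell markers (8). They were 0.36 for monocyte (3), 0.08 for macrophage (6) and 0.05 for neutrophil markers (2). Slopes differed widely within lists, from -0.01 (Zbtb46) to 1.24 (Ccl22) for dendritic cell markers. They ran from 0.29 (Plac8) to 1.34 (Ccr2) for monocyte markers and from -0.01 (Csf1r) to 0.78 (Lyz2) for macrophage markers. With so few genes, the medians do not rank the cell types. The part of such cells in the class II values was not tested. All 15 general leukocyte markers had reads in all 6 libraries. Their summed normalised counts ranged from 1126 to 3038 in Klf5 LKO and from 1073 to 5326 in control. Of the 3 most abundant, Lcp1, an actin bundler of white cells, had 934, 411 and 199 in Klf5 LKO, against 1171, 550.0 and 460.3 in control, with a slope of 0.30. Laptm5, a lysosomal protein of white cells, had 422, 24.6 and 38.3 in Klf5 LKO, against 592, 267 and 48.8 in control, with a slope of 0.92. Ptpn6, a phosphatase also found in epithelia, ranged by 1.75-fold, with a slope of 0.15.

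The 12 dendritic cell markers summed to 681 to 1030.3 in Klf5 LKO and 592 to 1742 in control, and 6 of them had reads in all 6 libraries. Zbtb46 was the most abundant of them in each library, at 630.3 to 791 in Klf5 LKO and 490 to 547 in control, with a slope on Ptprc of -0.01. Flt3, the growth factor receptor of dendritic cells, had 64.9, 1.49 and 7.45 in Klf5 LKO, against 328, 128 and 22.4 in control. Itgax, which codes for CD11c, had 109, 38.8 and 13.8 in Klf5 LKO, against 487, 101 and 22.4 in control. Ccr7 had 0 reads in all 3 Klf5 LKO libraries and in control 3. Of the 8 tested, limma called 0, DESeq2 2 (2.48% of all genes) and edgeR 0 (0.623%). An unadjusted limma p under 0.05 was found for 3 (10.9%). The groups stood apart for 2 (15.6%), Zbtb46 higher in Klf5 LKO and Clec10a lower. Clec10a had 0, 0.745 (1 read) and 0 in Klf5 LKO, against 73.6, 39.5 and 7.11 in control (DESeq2 adjusted p = 0.00132). The other DESeq2 call was Mgl2 (adjusted p = 0.0147).

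B cells and macrophages are the other classes of professional antigen-presenting cells. The 9 B cell markers in the table summed to 0.745 to 40.3 in Klf5 LKO and 4.06 to 102 in control, and Pax5 and Blk were at 0 in all libraries. Of 13 macrophage and Kupffer cell markers, 4 had reads in all 6 libraries, and Clec4f and Vsig4 had none in any. Their sum, 6820 to 7569 in Klf5 LKO and 9280 to 11684 in control, was mostly Cd14 and Csf1r. Cd68 had 225, 122 and 159.7 in Klf5 LKO, against 240.0, 93.2 and 215 in control, with a slope on Ptprc of 0.01. Cd14 had 5188 to 6373 in Klf5 LKO and 7789 to 10053 in control, with a slope on Ptprc of 0.16. Adgre1, which codes for F4/80, had reads in control 1 alone.

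Monocyte markers summed to 52.2 to 307 in Klf5 LKO and 99.6 to 479 in control, and 1 of the 6 had reads in all libraries. The 8 neutrophil markers in the table summed to 199 to 268 in Klf5 LKO and 219 to 231 in control, most of it Cxcr2. The 10 T and NK cell markers in the table summed to 11.5 to 26.6 in Klf5 LKO and 2.03 to 48.7 in control, with Cd4, Ncr1, Klrb1c and Gzma at 0 in all libraries.

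Markers of the remaining liver cells had slopes on Ptprc with medians of 0.03 or less. Endothelial markers summed to 90.4 to 214 in Klf5 LKO and 96.6 to 447 in control and had a median slope of -0.62. Stellate cell and fibroblast markers summed to 9189 to 11480 in Klf5 LKO and 6926 to 6995 in control, nearly all of it Rgs5, while Des, Lrat and Col3a1 were at 0. Hepatocyte markers, with a median slope of 0.02, summed to 11544 to 15614 in Klf5 LKO and 12437 to 16822 in control. Biliary markers had a median slope of 0.03.

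The genes whose pattern lay nearest to the mean pattern of the 7, by the root mean square distance of centred log2 values over the 6 libraries, were sought among 10385 other genes with a mean of at least 100. The 10 nearest were Lsp1, Cfp, Ptprc, Pmaip1, Cd52, Plin5, Fancd2, Chid1, Hmha1 and Cd36. Their distances ran from 0.51 for Lsp1 to 0.77 for Cd36, against a median of 1.27 over all candidates. Among the 7 genes themselves the distances ran from 0.43 for H2-DMa to 1.52 for Ciita, farther than the median candidate. The values were centred but not scaled, so the distance depends on how widely a gene varies as well as on its pattern. Most candidates varied little, so the 1.27 is largely the distance of flat genes and gives no scale for likeness of pattern. Each of the 7 genes is also part of the mean that it is measured against. Ciita varied the most of the 7, by 59.9-fold. Its distance thus does not by itself make it less like the others in pattern than a typical gene.

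Several of the nearest genes are known from white blood cells. Lsp1, a leukocyte actin-binding protein, had 156, 61.1 and 46.8 normalised counts in Klf5 LKO, against 629, 168 and 48.8 in control. Cfp, which codes for the complement factor properdin, had 223, 76.0 and 55.4 in Klf5 LKO, against 329, 212 and 77.2 in control. Others are not leukocyte markers. Pmaip1, which codes for the cell death protein Noxa, had 385, 99.1 and 82.0 in Klf5 LKO, against 357, 281 and 95.5 in control. Fancd2, a DNA repair gene, had 158, 104 and 108 in Klf5 LKO, against 248, 129.6 and 52.8 in control.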

How the data were processed

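Total RNA (4 ng) was made into single-end libraries with a low-input cDNA kit, amplified by 10 PCR cycles before and 7 after tagmentation, per the labels' protocols. TopHat, Bowtie2, DESeq2 and mm10 are named in the submitters' processing notes, while the counter and annotation are not given in the sources used. The authors deposited a signal per gene and library, which is each read count over the library's size factor. Whole reads were recovered for 100% of values, within a tolerance of 0.001. The authors also deposited a comparison table with log2 fold changes, a Wald statistic (a score) and p-values.

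Since values are normalised, limma was used rather than edgeR, which was planned for unscaled counts. limma 3.58.1 in R 4.3.3 (lmFit, eBayes with trend) was fitted to log2(value + 1), with a pseudocount of 1, two-sided, on 13490 genes whose mean was 10 or more, with Benjamini-Hochberg adjustment over all of them. A difference on this scale understates the change of low genes. DESeq2 1.42.0 and edgeR 4.0.16 on the recovered reads, TMM and upper quartile scaling, other filters and pseudocounts, a replicate block, Ptprc as a term and leaving out each library were alternatives. The fits were tested on simulated data. Positions and exon lengths are from GENCODE M21, and reading frames were aligned with Biopython 1.88. Klf5 LKO libraries 1, 2 and 3 held 21810798, 24784167 and 17161087 reads, and control libraries 1, 2 and 3 held 20066745, 11726934 and 17665210. Reads carry no molecular identifiers.

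The 7 genes, the lists and the naming rule were chosen with earlier results of these data known. Named are the 7 genes, Ptprc, Klf5, called pathway genes or otherwise the 2 of smallest p per list, the most abundant markers, and the 10 nearest genes. A gene that this rule names is not reported here. Other genes named were chosen after their values were seen.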

Additional observations from a re-analysis of the deposited data

How the results depend on the processing

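The median log2 difference of the 7 genes, -1.07, moved by less than the spread between replicates (1.42 log2 units) under all 16 alternatives. That spread is wider than the difference itself, so even a change of sign falls within it. The median ranged from -2.28 without control 3 to -0.18 without control 1, and was 0.34 when Ptprc was a term. Its value relative to Ptprc was 0.58 and ranged from 0.31 to 0.73 when 1 library was left out, but was -0.0468 with the mean of the general leukocyte markers in place of Ptprc, and with Ptprc as a term it cannot be formed. The number of genes called, 88, was 335 with DESeq2 and 46 with Ptprc as a term, and ranged from 14 to 105 when 1 library was left out (14 without control 2, 24 without control 1, 49 without Klf5 LKO 3, 53 without control 3). Of the pathway genes, 1 was called, 3 with DESeq2 and from 0 to 1 when 1 library was left out, 0 without control 2. H2-Ob and H2-DMb2 had log2 differences of 0.43 and 0.58 with Ptprc as a term, against -1.71 and -1.57. Klf5 (log2 difference -0.93, limma adjusted p = 0.0103) ranged from -0.98 to -0.84 when 1 library was left out, with limma adjusted p = 0.0625, 0.0681 and 0.0540 without control 1, 2 and 3. The cause of these changes was not tested. Same-numbered libraries deviated together with correlations of 0.18, -0.01 and 0.11 for numbers 1, 2 and 3. Those of different number had -0.20 to 0.14, so the numbers are not taken to pair them. The block gave each of the 7 genes a smaller SE, from 0.28 for Cd74 to 1.06 for Ciita. For H2-Aa the SE was 0.51 with the block, against 0.89 without. With the replicate block 110 genes were called, Ctse (limma adjusted p = 0.00711) and Klf5 (limma adjusted p = 0.0163) among them, and the other calls named here kept their side. Few reads limit Ciita (2 in control 3) and Ptprc (16 in control 3), and also H2-DMb2, H2-Ob, Cd86 and Flt3.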
